A study of Mus musculus with 5 samples.

Results

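Eif4ebp1 and 7 further genes that control the start of protein synthesis through the kinase mTOR were examined for peaks of c-Maf chromatin immunoprecipitation. The other genes were Eif4ebp2, Eif4ebp3, Eif4e, Eif4g1, Mtor, Rptor and Rps6kb1, so 8 of the 21887 protein-coding genes on assembled chromosomes were described. Every peak inside a gene span or within 50 kb of it was taken, which gave 54 of the 115354 deposited peaks. Eif4ebp1 was chosen by its peaks in the c-Maf antibody lists, which lie at its boundary, and the others as its relatives and pathway partners, so the peak values of these lists are a description and support nothing by themselves.

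The cells were macrophages grown from C57Bl/6 mouse bone marrow and polarized in vitro to M2, the alternatively activated state, per the source labels. The titles say M0, and nothing in the labels settles which holds. Formaldehyde-fixed, sonicated chromatin was precipitated with a c-Maf antibody in 2 libraries numbered 3 and 4. c-Maf is a transcription factor of the basic leucine zipper class. Normal rabbit immunoglobulin served as isotype control in 2 libraries with the same numbers, and 1 input library of number 4 was the control for all peak calls. No genotype, age or treatment beyond polarization is given for any group, and peak positions carry no expression, so the cell label could not be checked against markers.

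mTOR is a protein kinase that joins growth factor and amino acid signals to protein synthesis. With its partner raptor, encoded by Rptor, it phosphorylates the eIF4E-binding proteins and the S6 kinases. The binding proteins, encoded by the Eif4ebp genes, hold the cap-binding protein eIF4E away from the scaffold eIF4G until they are phosphorylated, and so limit the translation of capped messages. In macrophages mTOR signalling is known to shape metabolism and activation. c-Maf binds a palindromic sequence called the Maf recognition element.

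Depth was nearly equal, with 22017759 and 21655683 tags in the c-Maf antibody libraries and 21833446 and 21779401 in the isotype libraries after duplicates were removed. The lists differed far more, with 23434 and 17620 c-Maf antibody peaks against 58732 and 15568 isotype peaks (numbers 3 and 4). The long list of isotype 3 reached down to summits of 3 tags, while the other lists began at 4. Peaks passing a q-value of 0.05 numbered 717 and 505 in the c-Maf antibody lists, against 244 and 408 in the isotype lists. No peak was shorter than the fragment length of its list, which was 63 bp (c-Maf antibody 3), 60 bp (c-Maf antibody 4), 53 bp (isotype 3) and 56 bp (isotype 4). For a gene without a peak none was listed at the authors' p-value of 0.01, and shorter stretches or weaker signal are not shown by the lists.

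Around the 8 genes, peaks were about as dense as across the genome in the lists of number 3 and somewhat sparser in those of number 4. In the 1.35 Mb of the windows there were 12 peaks of c-Maf antibody 3 and 7 of c-Maf antibody 4, against 30 of isotype 3 and 5 of isotype 4. In c-Maf antibody 3 the density was 8.91 peaks per Mb, beside 8.53 per Mb on assembled chromosomes. In c-Maf antibody 4 it was 5.20 beside 6.39 per Mb, in isotype 3 22.3 beside 21.5, and in isotype 4 3.71 beside 5.64. No list had many more peaks around the 8 genes than its own density would give.

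**Figure D1:**
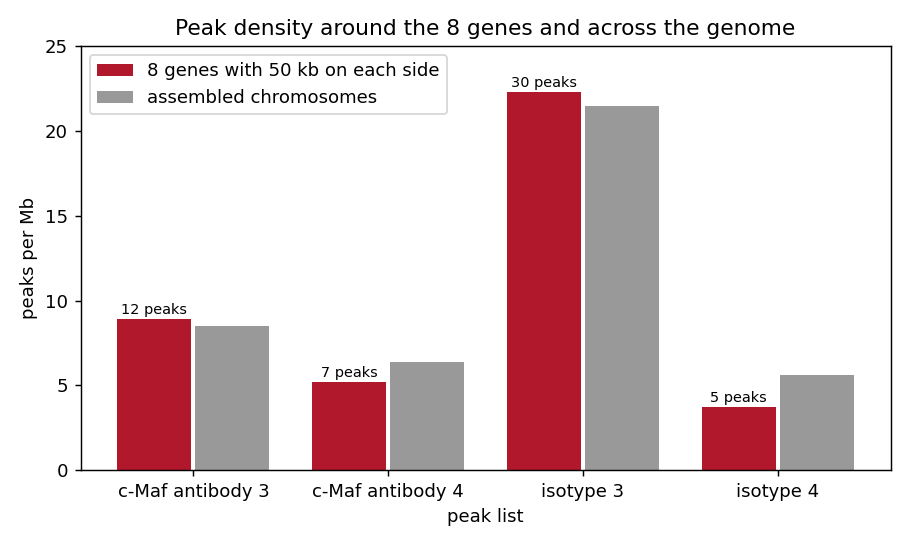
Peaks per Mb of each peak list in the 8 genes with 50 kb on each side (red) and on the assembled chromosomes (grey), with the number of peaks in the windows above each red bar. The c-Maf antibody bars stand at 8.91 and 5.20 per Mb around the genes, against 22.3 and 3.71 in the isotype lists. The red bar is slightly above the grey one in the lists of number 3 and below it in those of number 4.

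A c-Maf antibody peak lay in the window of 6 genes in number 3 (66.7% of all protein-coding genes had one) and of 5 genes in number 4 (53.8% of all). An isotype peak lay in the window of 7 genes in number 3 (85.0% of all) and of 2 genes in number 4 (47.3% of all). Both c-Maf antibody lists had a peak near Eif4ebp1, Eif4g1, Mtor and Rptor, 4 of 8 genes beside 39.3% of all genes. Both isotype lists had one near Mtor alone, 1 of 8 beside 42.5% of all genes. That count was 2 without isotype 3 and 7 without isotype 4, since a lone list then stands for the pair, with the shares of all genes given for the single lists.

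Of the 54 peaks, 52 (96.3%) overlapped no peak of another list, which is near the 94.5% of all 115354 peaks. The exceptions were the 2 peaks at the boundary of Eif4ebp1. A merged region with peaks of both c-Maf antibody lists and of neither isotype list, called c-Maf-only here, was therefore found near 1 of the 8 genes, beside 3.17% of all protein-coding genes. An isotype-only region, defined with the antibodies exchanged, was found near 0 of the 8, beside 1.45% of all. With a single c-Maf antibody library in place of the pair, 5 genes (number 4 alone, 53.0% of all genes) or 6 genes (number 3 alone, 65.8% of all) had a c-Maf-only region. With a single isotype library 2 genes (number 4 alone, 46.7% of all) or 7 genes (number 3 alone, 84.7% of all) had an isotype-only region. Shares this high leave little to read from those counts.

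**Figure D2:**
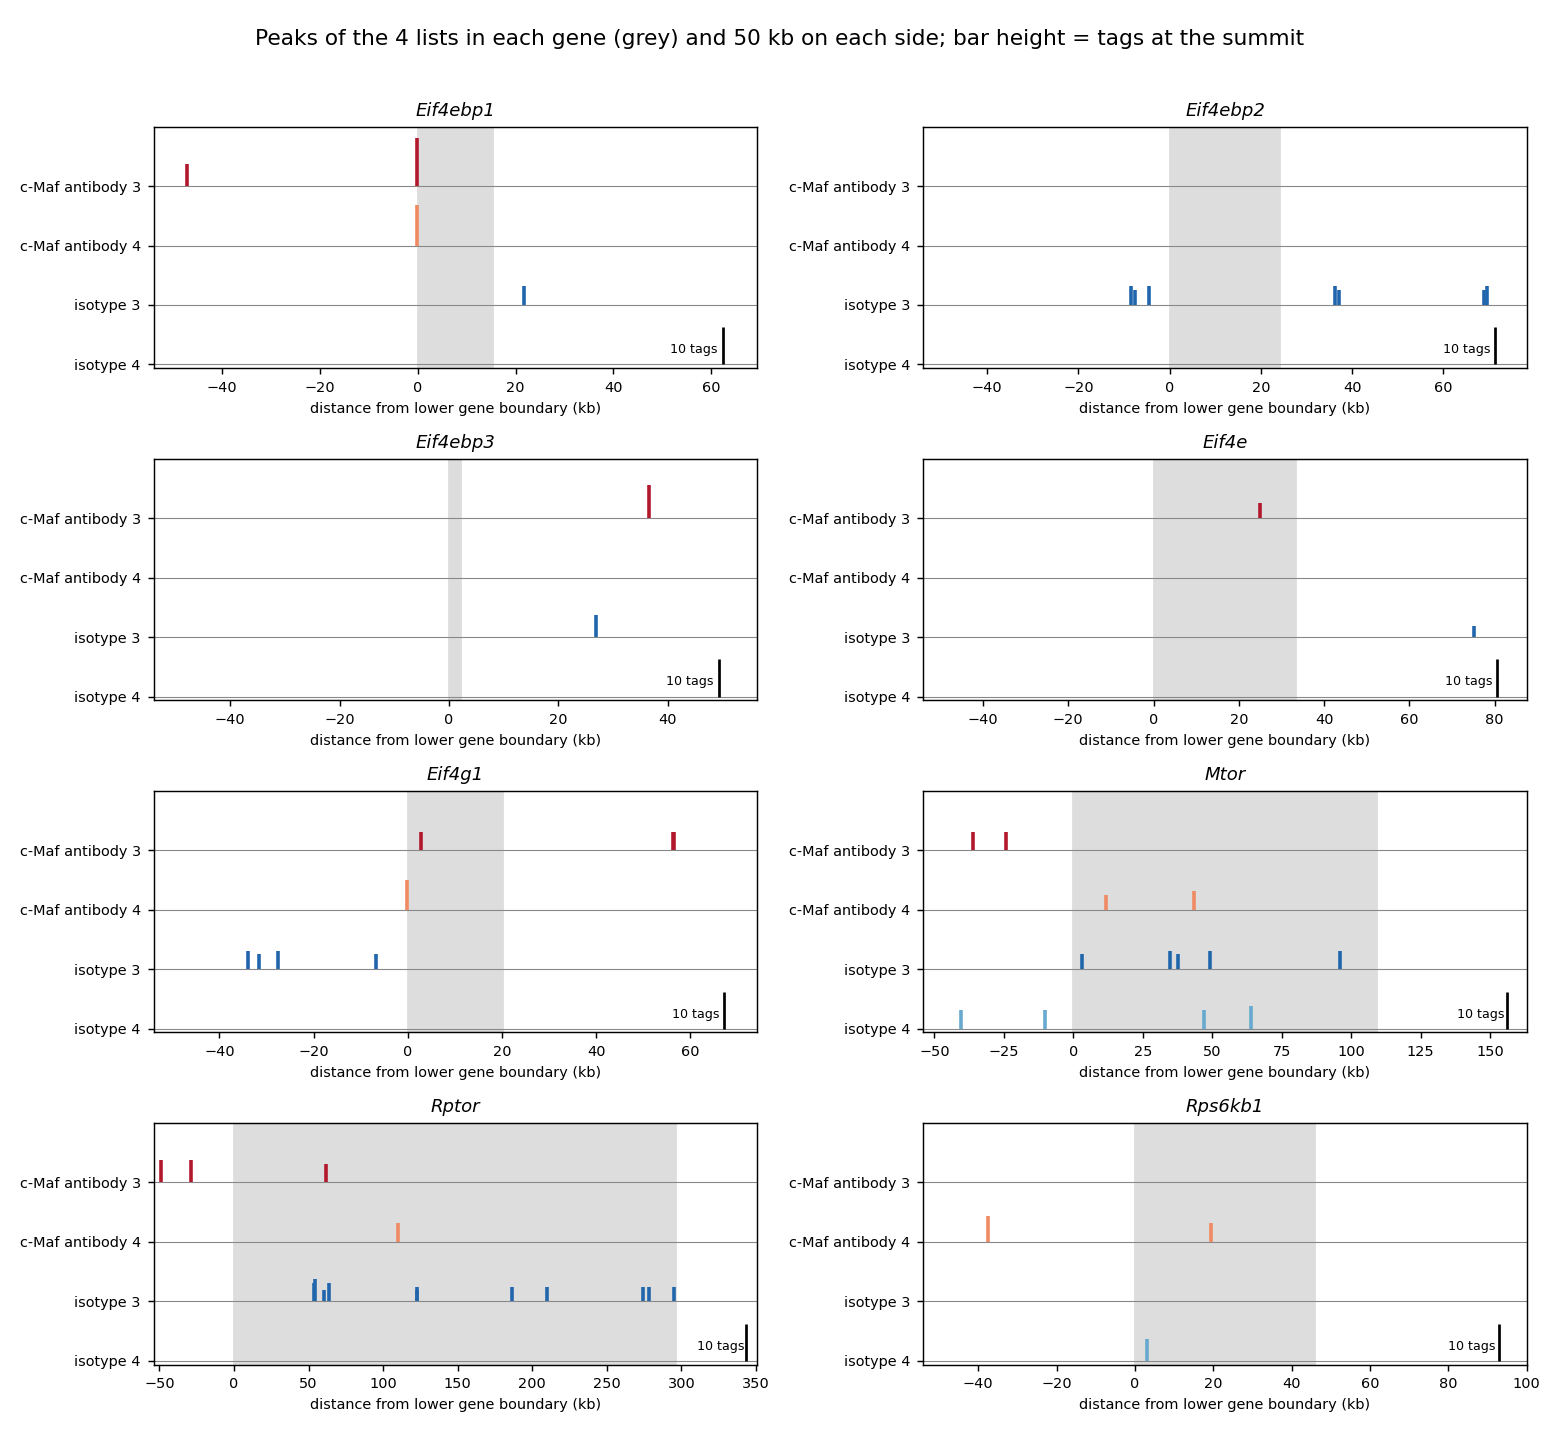
Peaks of the 4 lists around each gene, with c-Maf antibody 3 at the top and isotype 4 at the bottom of each panel. The horizontal axis is the distance from the lower-coordinate gene boundary in kb, grey marks the gene, and bar height is the number of tags at the summit. The c-Maf antibody bars coincide only at the boundary of Eif4ebp1, with 13 and 11 tags.

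Eif4ebp1 encodes the best studied eIF4E-binding protein, and its transcription is known to respond to the stress factor ATF4. The gene spans chr8:27260327-27275656 (mm10 throughout). In c-Maf antibody 3 a peak of 149 bp lay at chr8:27260169-27260317, outside the gene and 10 bp from its lower-coordinate boundary. In c-Maf antibody 4 a peak of 98 bp lay at chr8:27260197-27260294, 33 bp from the same boundary. The second peak lay wholly within the first, and their summits, 107 bp (number 3) and 80 bp (number 4) outside the gene, were 27 bp apart. The gene table gives no strand, so the boundary is named by coordinate. Neither isotype list had a peak there.

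The summit of the Eif4ebp1 site held 13 tags in c-Maf antibody 3 (Poisson interval 6.92 to 22.2) and 11 tags in c-Maf antibody 4 (5.49 to 19.7). The intervals overlap almost wholly, so the tag numbers of the 2 libraries were not distinguishable at this depth. The local input level derived from the deposited ratio was 1.00 tags for number 3 and 0.72 tags for number 4. The authors' fold enrichment was 6.81 in number 3 and 6.89 in number 4. The deposited −log10 q was 4.16 in number 3 and 3.36 in number 4. Both peaks passed a q-value of 0.05, which 1 other peak of the 54 also did.

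The isotype tag number at this site is not in the lists. Isotype peaks elsewhere with an input level between 0.72 and 1.00 numbered 3335 (isotype 3) and 801 (isotype 4), and their summits began at 4 tags in each list. Their median summit was 5 tags in isotype 3 and 6 tags in isotype 4. The highest held 21 tags (isotype 3) and 18 tags (isotype 4), more than the Eif4ebp1 site in either c-Maf antibody library. The nearest isotype peak to Eif4ebp1 was 6.43 kb beyond the upper boundary in isotype 3, with 5 tags, and 109.8 kb away in isotype 4, with 6 tags. A further c-Maf antibody peak of number 3, with 6 tags, lay 47.1 kb below the gene inside Got1l1. It had no counterpart in c-Maf antibody 4.

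Within its own lists the site ranked high, but its peaks in these lists chose it, so the ranks are a description only. By p-value it was number 61 of 23434 peaks in c-Maf antibody 3 and number 69 of 17620 in c-Maf antibody 4. By mean percentile rank it was number 12 of the 491 c-Maf-only regions and number 2 of the 31 that lay within 1 kb of the boundary of a protein-coding gene. The median c-Maf-only region held 7 tags in number 3 and 6 tags in number 4. The same definition with the antibodies exchanged gave 409 isotype-only regions, so regions of this kind were not particular to the c-Maf antibody. The 31 boundary regions lay near 33 genes, 0.151% of all protein-coding genes, and isotype-only regions lay that close to 0.0594% of all genes, with none of the 8 among them.

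**Figure D3:**
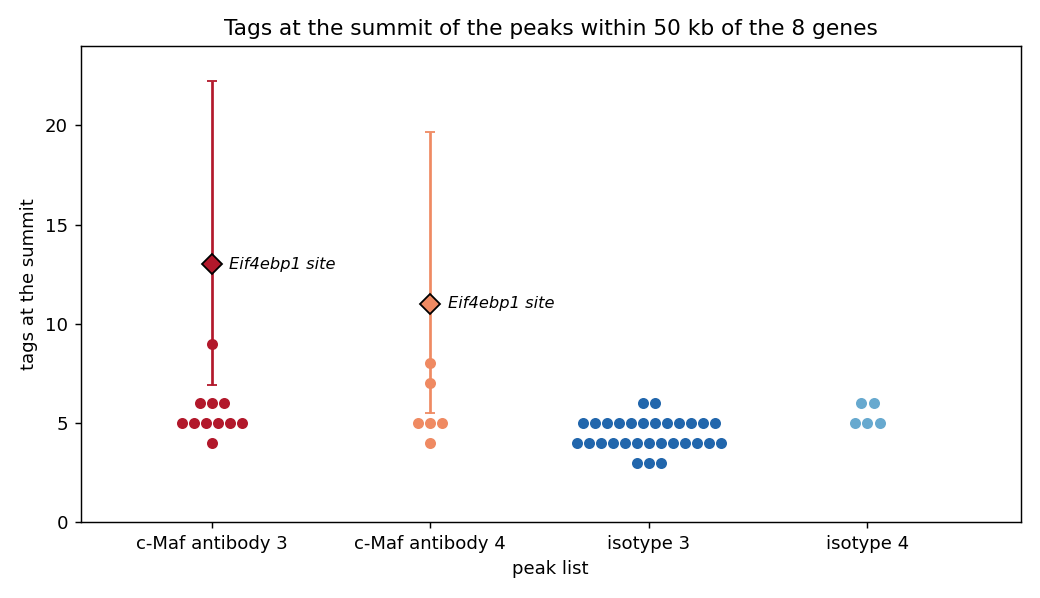
Tags at the summit of each of the 54 peaks within 50 kb of the 8 genes, by peak list. Circles are single peaks, and diamonds are the peaks of the Eif4ebp1 site with their 95% Poisson intervals. The site, at 13 and 11 tags, lies above the other peaks, which held 3 to 9.

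The c-Maf-only boundary regions most like that of Eif4ebp1 were compared by the distance between the summit pileups of the 2 c-Maf antibody libraries on the log2 scale. The nearest was at Zfp143, a zinc finger transcription factor gene, at a distance of 0.18, with 12 and 10 tags in numbers 3 and 4. Its region, chr7:110061518-110061681, lay 8 bp from the gene boundary. Next came a region shared by Idh1, the cytosolic isocitrate dehydrogenase gene, and Pikfyve, a phosphoinositide kinase gene, at 0.31, with 12 and 9 tags. The nonagouti gene, listed under the symbol a, followed at 0.38 with 10 and 11 tags, and 4930467E23Rik at 0.50 with 15 and 8 tags. These distances rest on 2 libraries and on few tags, so their order carries a large counting error. Of the 31 regions, 5 passed a q-value of 0.05 in both c-Maf antibody libraries, and the Eif4ebp1 site was among them. The region at 4930467E23Rik was not, with a −log10 q of 1.72 in number 3 and 0 in number 4. Its fold enrichment was 4.42 and 2.48, beside 6.81 and 6.89 at Eif4ebp1, so it was alike in pileup only.

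**Figure D4:**
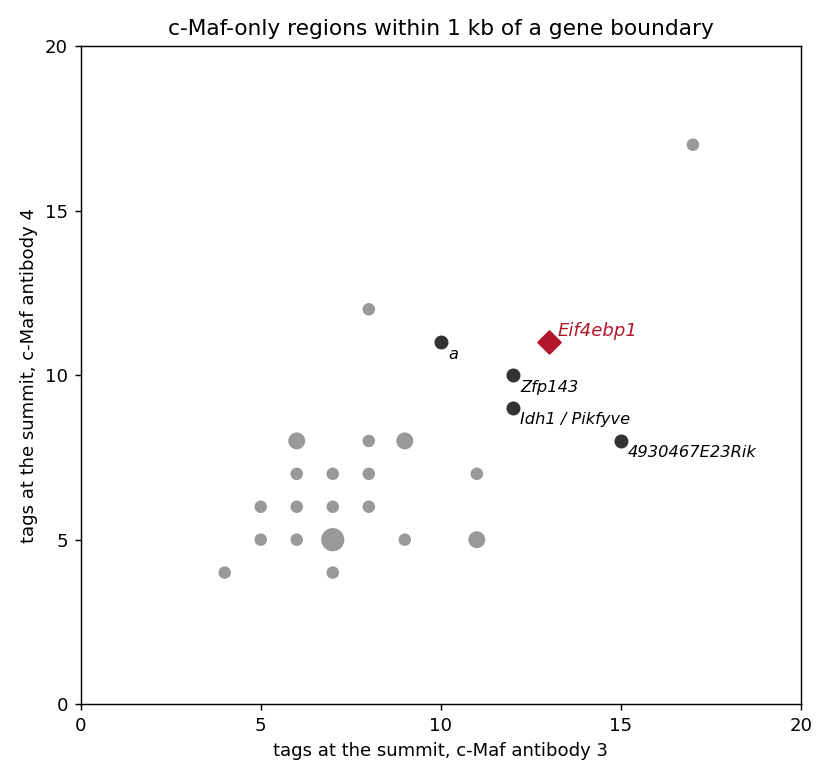
Tags at the summit in c-Maf antibody 3 (horizontal) and c-Maf antibody 4 (vertical) for the 31 c-Maf-only regions at most 1 kb from a boundary of a protein-coding gene; larger circles are several regions at one point. Eif4ebp1 (red diamond, 13 and 11 tags) and the 5 genes most like it by summit pileup (black) are named.

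Eif4ebp2 and Eif4ebp3, which encode the other eIF4E-binding proteins, had no such site. Eif4ebp2 (chr10:61428491-61452790) had no c-Maf antibody peak in its window. The nearest lay 153.7 kb away in number 3, with 6 tags, and 67.9 kb away in number 4, with 5 tags. Isotype 3 had 7 peaks of 4 or 5 tags there, and 3 of them lay 4.44 kb to 8.44 kb below Eif4ebp2 inside Nodal, which encodes a ligand of the TGF-beta family. Of the other 4, 2 lay inside Lrrc20 and 2 lay 11.9 kb and 12.8 kb beyond the gene, while isotype 4 had none. Genome-wide densities would give 2.67 (isotype 3) and 0.70 (isotype 4) for a window of this length. For the c-Maf antibody lists they would give 1.06 (number 3) and 0.79 (number 4).

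Promoter windows of 300 bases, from 250 before to 50 after a gene start, were taken from RefSeq (GRCm38.p6) for 6 of the 8 genes, in 7 windows. Eif4ebp1 and Eif4ebp3 had no entry. The letters TGCTGA, an arm of the Maf recognition element, were searched on both strands, as were the full Maf recognition elements, in which that arm and its reverse complement stand 1 base or 2 bases apart. The arm was found in 2 of the 7 windows, those of Eif4ebp2 and of 1 of the 2 Eif4e starts, beside 19.5% of all 32817 promoter windows. The full elements were found in 0 of the 7, beside 0.00609% of all windows for each. The Eif4ebp2 window, chr10:61452620-61452919 on the minus strand, is shown because it holds the arm (capitals, positions 174 to 179 from the left) and no peak of any list.
Eif4ebp2: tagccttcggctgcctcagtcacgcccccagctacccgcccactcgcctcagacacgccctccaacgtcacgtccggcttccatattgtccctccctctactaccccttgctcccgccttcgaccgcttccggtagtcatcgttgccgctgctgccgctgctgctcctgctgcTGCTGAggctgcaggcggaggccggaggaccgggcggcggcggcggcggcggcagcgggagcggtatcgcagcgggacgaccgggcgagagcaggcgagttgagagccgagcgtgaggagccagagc

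Eif4ebp3 (chr18:36664060-36666324) is the shortest of the 8 genes. Its window held 1 c-Maf antibody peak, in number 3 only, 34.2 kb above the gene at chr18:36700556-36700652. The peak had 9 tags (Poisson interval 4.12 to 17.1) and a −log10 q of 2.03, the third of the 54 peaks to pass a q-value of 0.05. It lay outside genes, 4.46 kb from E230025N22Rik. The nearest peak of c-Maf antibody 4 was 109.9 kb from Eif4ebp3, and isotype 3 had a peak of 6 tags 24.6 kb from it. Among the 3 relatives, a shared site was listed at Eif4ebp1, a peak of a single library far from Eif4ebp3, and none near Eif4ebp2. Eif4ebp1 was chosen by that site, so its contrast with its relatives was set by the choice. Shared boundary sites free of isotype peaks lay at 0.151% of all protein-coding genes, so their absence at Eif4ebp2 and Eif4ebp3 says little.

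Eif4e and Eif4g1 encode the cap-binding protein and its scaffold, which together recruit the ribosome to capped messages. Eif4e (chr3:138526191-138559696) had 1 c-Maf antibody peak, inside the gene in number 3, with 4 tags and a fold enrichment of 3.26. It was 8.62 kb from the nearer boundary. In c-Maf antibody 4 the nearest peak lay 178.3 kb away. Isotype 3 had a peak of 3 tags 41.7 kb above the gene, and isotype 4 had none in the window.

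Eif4g1 (chr16:20672720-20692883) was the other gene with a c-Maf antibody peak within 1 kb of a boundary. The c-Maf antibody peak lay at chr16:20672494-20672553 in number 4, 167 bp outside the gene, with 8 tags (Poisson interval 3.45 to 15.8), a fold enrichment of 4.45 and a −log10 q of 0.23. It did not pass a q-value of 0.05. In c-Maf antibody 3 the nearest peak lay inside the gene, 2.76 kb from that boundary, with 5 tags and a fold enrichment of 3.81, so the libraries did not share a place. Neither isotype list had a peak within 1 kb of a boundary of any of the 8 genes, while 6.47% (isotype 3) and 1.93% (isotype 4) of all genes had one. For the c-Maf antibody the counts were 1 gene in number 3 (3.80% of all) and 2 genes in number 4 (2.42% of all). Both c-Maf antibody lists met this at 1 of the 8 genes, Eif4ebp1, beside 0.375% of all genes, and both isotype lists at 0, beside 0.411% of all.

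The Eif4g1 promoter window, chr16:20672477-20672776 on the plus strand, is the one member window that a peak overlapped. Capitals mark the 60 bases under the peak of c-Maf antibody 4, at positions 18 to 77 from the left. The window holds neither TGCTGA nor the full elements. Its share of G and C was 62.0%, and that of the capitals 53.3%, beside a median of 52.7% over all promoter windows.
Eif4g1: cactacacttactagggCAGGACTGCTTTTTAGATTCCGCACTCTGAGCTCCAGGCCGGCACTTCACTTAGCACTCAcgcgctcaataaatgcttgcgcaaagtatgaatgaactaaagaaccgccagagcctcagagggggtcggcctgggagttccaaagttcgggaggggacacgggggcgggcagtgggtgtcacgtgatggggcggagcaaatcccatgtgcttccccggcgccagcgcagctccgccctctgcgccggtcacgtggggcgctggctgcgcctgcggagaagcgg

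The rest of the Eif4g1 window held 2 further peaks of c-Maf antibody 3, 36.3 kb and 36.4 kb above the gene inside Thpo, the thrombopoietin gene, with 5 tags each. Isotype 3 had 4 peaks of 4 or 5 tags below Eif4g1, 3 of them inside Ece2, an endothelin-converting enzyme gene. The nearest, 6.69 kb from Eif4g1, lay outside genes. Isotype 4 had no peak in the window, and its nearest, 50.2 kb away with 5 tags, lay just past the limit.

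Mtor (chr4:148448582-148557685), the kinase gene, had c-Maf antibody peaks of both numbers at different places. In number 3, 2 peaks of 5 tags lay 24.3 kb and 36.0 kb below the gene. In number 4, 2 peaks of 4 and 5 tags lay inside Mtor, 11.8 kb and 43.5 kb from the lower boundary. The isotype lists had more peaks here, with 5 inside the gene in isotype 3 and 2 inside and 2 below it in isotype 4. Their genome-wide densities would give 4.49 (isotype 3) and 1.18 (isotype 4) for a window of this length. Those of the c-Maf antibody lists would give 1.78 (number 3) and 1.34 (number 4). Isotype peaks held 4 to 6 tags, so they covered the range of the c-Maf antibody peaks, and 2 isotype peaks lay where Angptl7 overlaps Mtor.

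Rptor (chr11:119602905-119899591) is the longest of the 8 genes, and its window was 396.7 kb. It held 1 c-Maf antibody peak inside the gene in each number, both with 5 tags, at 61.6 kb from the lower boundary in number 3 and 109.7 kb in number 4. Number 3 had 2 more, 28.9 kb and 49.2 kb below the gene, with 6 tags each. Isotype 3 had 11 peaks, all inside Rptor, with 3 to 6 tags, against 8.52 that its genome-wide density would give for a window of this length. Isotype 4 had none, against 2.24 at its density. The c-Maf antibody peaks numbered 3 and 1 against 3.38 and 2.54 at theirs.

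Rps6kb1 (chr11:86498869-86544885) encodes an S6 kinase, which mTOR activates and which phosphorylates ribosomal protein S6. Only the lists of number 4 had peaks here. c-Maf antibody 4 had 1 inside the gene with 5 tags, 19.5 kb from the nearer boundary, and 1 of 7 tags 37.5 kb below it. Isotype 4 had 1 inside the gene with 6 tags, 2.94 kb from the lower boundary. In c-Maf antibody 3 the nearest peak, with 6 tags, lay 51.3 kb away and so just outside the window, and in isotype 3 it lay 54.2 kb away with 4 tags. The farthest peak still taken for any of the 8 genes was that of c-Maf antibody 3 at 49.2 kb from Rptor.

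Inside the gene spans, c-Maf antibody peaks were found in Eif4e, Eif4g1 and Rptor in number 3 (3 genes, 23.1% of all genes) and in Mtor, Rptor and Rps6kb1 in number 4 (3 genes, 17.6% of all). Isotype peaks were found in Mtor and Rptor in number 3 (2 genes, 33.7% of all) and in Mtor and Rps6kb1 in number 4 (2 genes, 15.3% of all). Both c-Maf antibody lists had a peak inside Rptor (1 gene, 9.93% of all) and both isotype lists inside Mtor (1 gene, 11.3% of all). A c-Maf-only region lay inside 0 of the 8 spans (0.946% of all), and an isotype-only region inside 0 (0.480% of all). Apart from the Eif4ebp1 site, the sizes of the peaks overlapped between the antibodies, with 4 to 9 tags in the c-Maf antibody lists, against 3 to 6 in the isotype lists. The median summit was 5 tags in each c-Maf antibody list, against 4 tags in isotype 3 and 5 tags in isotype 4. Of the 54 peaks, 46 had a deposited −log10 q of 0.

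A list of 81 other genes of cap-dependent translation, the mTOR complexes, their upstream signals, amino acid sensing, the S6 kinase branch and the eIF2 stress response was read in the same windows. A c-Maf-only region lay near 5 of the 81 (6.17%, beside 3.17% of all genes), and an isotype-only region near 1 (1.23%, beside 1.45% of all). With c-Maf antibody 4 alone in place of the pair 37 of the 81 (45.7%, beside 53.0% of all genes) had a c-Maf-only region, and with number 3 alone 57 (70.4%, beside 65.8% of all). With the pair, no c-Maf-only region was within 1 kb of a boundary of any of the 81. The share of all genes with one was 0.151%, so low that finding none among 81 says little. In the cap-binding group of 12, Mknk1, a kinase of eIF4E, held a region inside the gene with 6 and 7 tags in c-Maf antibody 3 and 4. Among 4 genes of mTOR complex 2, Mapkap1 held one inside the gene with 6 and 5 tags, and the isotype-only region lay 17.6 kb from Prr5, with 4 and 5 tags in isotype 3 and 4.

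Among 14 genes of the eIF2 response, Eif2ak3, which encodes the stress kinase PERK, had one 32.3 kb away with 7 and 8 tags. Eif2b3, a subunit gene of the eIF2 exchange factor, had one 37.6 kb away with 11 and 5 tags. That region lay inside Btbd19 and overlapped a boundary of Tctex1d4, so it was among the 31 boundary regions. None was found near the 3 other genes of mTOR complex 1, the 23 of amino acid sensing or the 7 of the S6 kinase branch. The share of all genes was 3.17%, so groups this small allow no contrast between branches. None of the 5 c-Maf-only regions near pathway genes passed a q-value of 0.05 in both c-Maf antibody libraries. Of all 491 c-Maf-only regions, 36 did, and the like count was not taken for the 409 isotype-only regions. The Eif4ebp1 site was among those 36, but it was chosen by its peaks in these lists, so the contrast carries no weight.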

How the data were processed

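Per the file headers, peaks were called with MACS 2.1.1.20160309 separately for each antibody library, from single-end reads, at a p-value cut-off of 0.01, with 1 tag kept per position. Every list was called against the input of number 4, with the human value of the genome size. The build was mm10 and the tools FastQC, MACS 1.4.2 and MACS2, per the submitters' processing notes; no source used here names the aligner. The deposited pileup signal at a summit was scaled by the authors towards the input. Dividing by that scale gave whole tags for every peak, within 0.01 on the pileup. The deposited fold enrichment is a ratio with 1 added to both parts, from which the local input level was derived. The p-values recomputed from it matched the deposited −log10 values within 0.02 for 99.99% of peaks or more in every list. These scores are the authors', computed list by list and not rescaled between lists. Counts passing a q-value, percentile ranks, fold enrichments and derived input levels were nevertheless set side by side across lists.

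Peaks overlapping by at least 1 bp were merged across lists with Python 3.11.15 and pandas 2.3.3. Gene spans came from a RefSeq table of GRCm38.p6, whose coordinates are those of mm10. It holds 21887 protein-coding genes on assembled chromosomes, and all 8 genes and all 81 other pathway genes were matched. Poisson intervals are exact, at 95% (scipy 1.17.1), and cover counting error only. The genes, the pathway lists and the rules were chosen with earlier results of these data known. Genes named are the 8, those holding or nearest to a peak in their windows, pathway genes whose 50 kb window has a c-Maf-only region, and the 5 genes whose boundary region is most like that of Eif4ebp1 by summit pileup. Some items that these rules take are not reported here. No test was run, since 2 libraries stand against 2 and peaks of these lists chose the genes.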

Additional observations from a re-analysis of the deposited data

How the results depend on the processing

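The Eif4ebp1 site was found under all 10 alternatives, namely p of 1e-5, q of 0.05, equal list lengths of 15568 peaks, 50% reciprocal overlap, summits within 200 bp, each library left out, and c-Maf antibody peaks at q of 0.05 with isotype peaks as deposited, the last chosen after the data were seen. Since the site was chosen by its peaks in these lists, this is a description and no sign of stability, and leaving out a library cannot remove it by construction. Of the 8 genes, Eif4ebp1 alone had a c-Maf-only region at windows of 5, 10 and 100 kb too. The share of all genes with one was 1.22%, 1.48% and 5.33% at those windows, 0.658% at p of 1e-5, 0.320% at q of 0.05, 1.88% at 50% overlap and 0.302% at the added setting. Other pathway genes with one numbered 2 (5 kb), 3 (10 kb), 1 (p of 1e-5), 0 (q of 0.05 and the added setting) and 3 (equal lengths). Genes with a peak in both c-Maf antibody lists fell to 1 at p of 1e-5, q of 0.05 and the added setting. Those with a peak in both isotype lists were 4 at 100 kb and 0 at p of 1e-5, q of 0.05 and equal lengths. Stricter thresholds and wider windows change these counts by construction. With 1 library left out, genes with a c-Maf-only region ranged from 1 to 6, with an isotype-only region from 0 to 7, with peaks in both c-Maf antibody lists from 4 to 6 and in both isotype lists from 1 to 7. The share of all genes ranged from 3.26% to 65.8% and other pathway genes from 5 to 57. No paired analysis was possible because the counts come from no test, and no label ties a number to a shared animal or day. By number, the windows held 12 c-Maf antibody peaks against 30 isotype peaks in number 3, and 7 against 5 in number 4. Depth limits all values: a peak of 5 tags has a Poisson interval of 1.62 to 11.7.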
